A study of Rattus norvegicus with 9 samples.

Results

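Cells make cholesterol and fatty acids from acetyl-CoA, and the genes described here encode the enzymes of those routes and the proteins that control them. They were taken from a list of gene symbols that was drawn up with earlier results of these data known, so the list was not chosen blind to its direction. Of 30 listed symbols 29 were found among the 17315 genes of the count tables, all 29 passed the filter on low counts that left 10128 tested genes, and Scd was absent. RNA was sequenced from horizontal basal cells, reserve stem cells of the olfactory epithelium, grown from primary dissociations of rats of strain SD and harvested at passage 7. The first group held 3 libraries of cells given vehicle (0.1% DMSO, time 0 in the labels). The other groups held 3 libraries each of cells treated with 50 nM phorbol 12-myristate 13-acetate (PMA), which activates protein kinase C, for 6 h or 12 h. No group received vehicle for 6 h or 12 h, so PMA and time in culture cannot be told apart. Separate cultures or animals behind the libraries of a group are not named in the labels, and p-values therefore describe the spread among libraries, which may be technical.

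Cholesterol synthesis runs from acetyl-CoA through mevalonate and the isoprenoid diphosphates to squalene, which is closed into a ring and trimmed to cholesterol. Fatty acid synthesis starts from citrate, which is split to acetyl-CoA, carboxylated, built into palmitate and then elongated and desaturated. Both routes are driven by the SREBP transcription factors, encoded by Srebf1 and Srebf2. These are held in the endoplasmic reticulum with their escort Scap, and the Insig proteins retain Scap there when sterols are plentiful. In stratified epithelia these routes supply the membranes of dividing basal cells and the lipids of differentiating layers.

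Levels are CPM, read counts relative to the TMM-scaled library total, and log2 fold changes are given ± SE. Levels are compared between groups for 1 gene, never between genes, because CPM does not account for gene length. The libraries held 13601635 to 19001819 reads in genes. The 6 markers of horizontal basal cells summed to 15536 to 18414 CPM in vehicle, 2626 to 3273 CPM after 6 h and 4012 to 4635 CPM after 12 h. Ptprc of immune cells, Col1a2, Pdgfrb and Lum of fibroblasts and pericytes, and Adipoq, Fabp4 and Awat1 of adipocytes and sebocytes, which make much lipid, had no read in any library. The 7 fibroblast and pericyte markers summed to 4.51 to 5.78 CPM in vehicle, mostly Col1a1 and Pdgfra. After 6 h they summed to 2.06 to 3.82 CPM, and after 12 h to 1.77 to 3.64 CPM. The 7 adipocyte and sebocyte markers summed to 26.0 to 31.0 CPM in vehicle, 18.8 to 22.4 CPM after 6 h and 17.1 to 20.7 CPM after 12 h, most of it Lpl. The 6 immune markers, mostly Cd68, summed to 26.7 to 29.1 CPM in vehicle, 70.4 to 72.8 CPM after 6 h and 83.7 to 95.7 CPM after 12 h. Among them Cd14 went the other way, with means of 7.80, 1.48 and 3.26 CPM. Krt8 made up most of the sustentacular and gland markers (1207 to 1412, 1954 to 2015 and 2189 to 2530 CPM), whose defining Cyp2g1 and Ermn had no read. Sox9 of the same list had means of 18.0, 72.5 and 137 CPM, and Krt18 of 6.49, 36.7 and 37.8 CPM. Only 5 of the 8 listed markers were among the counted genes. All 10 proliferation genes fell at both times, against 39.0% and 38.2% of all tested genes. Their mean log2 level was 5.66, 6.47 and 7.06 in vehicle replicates 1, 2 and 3, 1.90 to 2.11 after 6 h and 1.34 to 1.98 after 12 h. The part of these shifts in the results on lipid genes was not tested.

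The first comparison asks what differed after 6 h of PMA. Most steps of sterol synthesis stood lower, from the first mevalonate enzymes to the last reductase, and so did the carboxylase and synthase of fatty acid synthesis. The negative regulators Insig1 and Insig2 and the desaturase Sc5d stood higher. Of the 29 genes 22 fell (75.9%), against 39.0% of all tested genes, and 3 rose, against 37.8% (edgeR's quasi-likelihood test, adjusted p under 0.05). With 25 of 29 the share called in either direction (86.2%) was close to the 76.8% of all tested genes, and so was the share whose 3 libraries per group did not overlap (26 of 29, against 79.0%). The median log2 fold change of the 29 genes was -0.78, against -0.03 over all tested genes. At least 2-fold falls were called in 11 genes (21.0% of all tested genes fell that far) and at least 2-fold rises in 2, Insig1 and Insig2 (18.4% of all tested genes). Scaling sets part of this split: 25 fell and 3 rose with upper-quartile scaling, and 26 fell and 2 rose without normalization. Over all tested genes 3831 rose and 3945 fell with TMM, 3023 and 4837 with upper-quartile scaling, and 2277 and 5855 without normalization. In these bulk libraries, fewer cells of a type and less RNA per cell cannot be told apart.

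The second comparison sets 12 h of PMA against vehicle. The same routes were still lower in most steps, with smaller differences, while Insig1 and Sc5d stood further above vehicle. Of the 29 genes 20 fell (69.0%, against 38.2% of all tested genes) and 4 rose (against 37.7%), and the median log2 fold change was -0.47, against -0.02 over all tested genes. The share called in either direction was 24 of 29 (82.8%, against 75.8%), and in 23 of 29 the libraries of both groups did not overlap (against 78.7%). At least 2-fold falls were called in 6 genes (20.4% of all tested genes) and at least 2-fold rises in Insig1 and Sc5d (18.0% of all tested genes). The fourth gene to rise was Srebf2. With upper-quartile scaling or without normalization only Insig1 and Sc5d were called higher, a count of 2, and 24 or 26 genes fell. Over all tested genes 3818 rose and 3864 fell with TMM, 2963 and 4827 with upper-quartile scaling, and 2120 and 6021 without normalization. Both comparisons use the same 3 vehicle libraries.

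The third comparison asks what changed between 6 h and 12 h in PMA. Most sterol and fatty acid enzymes rose in this interval. Of the 29 genes 18 rose (62.1%, against 25.3% of all tested genes) and 3 fell (against 25.8%), with a median log2 fold change of 0.43 against 0.01 over all tested genes. In all 21 of 29 were called (72.4%, against 51.1%), and in 22 the libraries of both times did not overlap (against 58.0%). At least 2-fold rises were called in 3 genes, Hsd17b7, Insig1 and Elovl6 (6.08% of all tested genes), and no gene of the 29 fell that far (5.44% of all tested genes). The genes that fell were Scap, Insig2 and Elovl5. This comparison shares its 6 h libraries with the first and its 12 h libraries with the second, so the 3 sets of values are given side by side and are not independent.

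**Figure D1:**
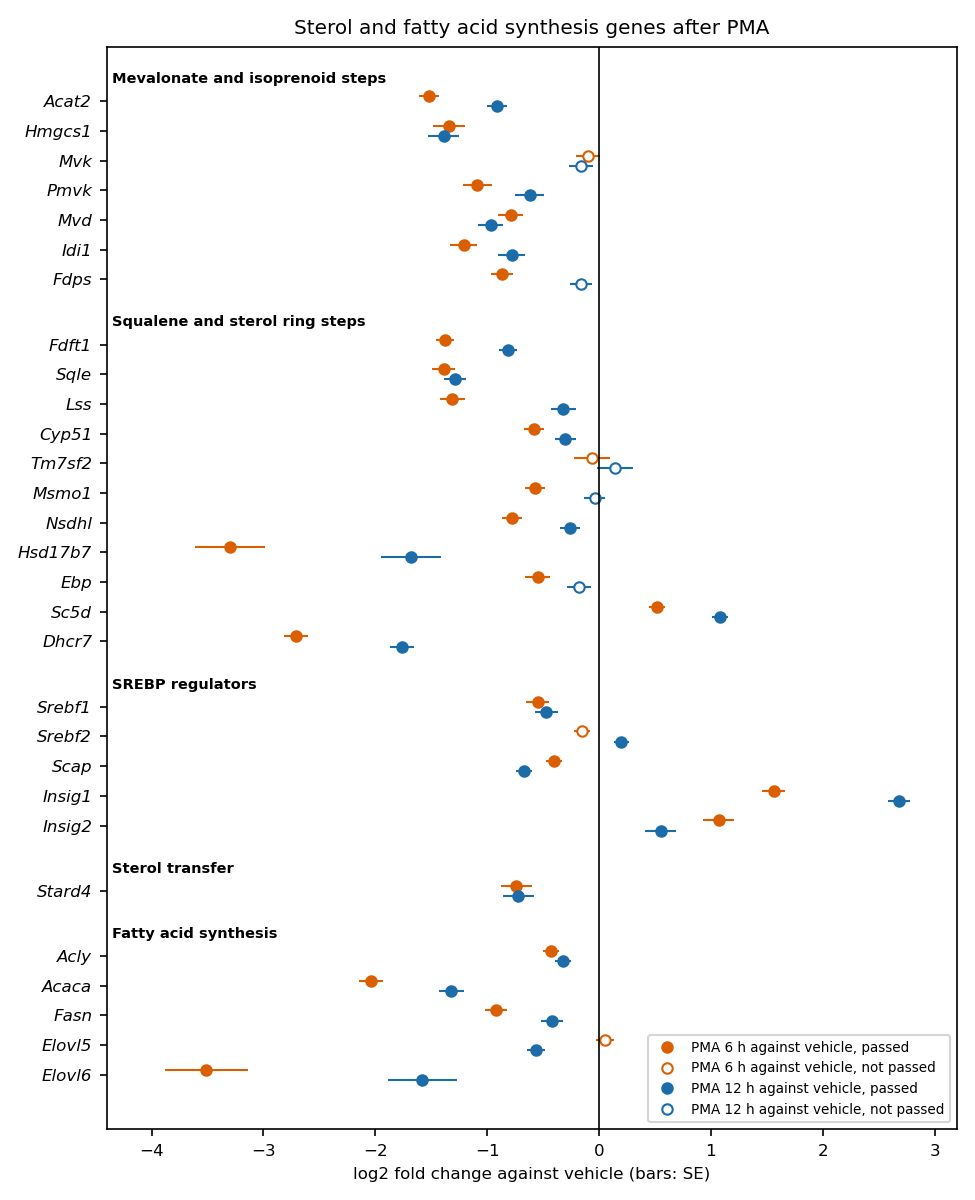
Log2 fold change against vehicle (horizontal axis, bars show the SE) of the 29 genes (vertical axis, grouped by role) after 6 h (orange) and 12 h (blue) in PMA, with filled points for adjusted p under 0.05 and open points otherwise. Most genes lie left of 0, with Elovl6 (-3.51), Hsd17b7 (-3.30) and Dhcr7 (-2.71) farthest at 6 h, while Insig1, Insig2 and Sc5d lie to the right; without normalization Sc5d at 6 h (-0.02) and Insig2 at 12 h (-0.03) would lie just left of 0.

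The promoters of 4 genes with unlike courses are printed to show the letters around their start sites: Hmgcs1, which fell and did not return, Dhcr7, which fell steeply, and Sc5d and Insig1, which rose. The windows run from 250 bases before to 50 bases after the start site, come from RefSeq on build GRCr8, which is newer than the build rn6 of the count tables, and were matched by symbol for 22 of the 29 genes. Capitals mark matches, on either strand, to CCAAT (the NF-Y box, written ATTGG when it lies on the other strand), GGGCGG (the GC box, CCGCCC on the other strand) and CACGTG (an E-box). Hmgcs1 lies at chr2:53382054-53382353 (plus strand), Dhcr7 at chr1:208444184-208444483 (plus strand), Sc5d at chr8:51538228-51538527 (minus strand) and Insig1 at chr4:8057720-8058019 (minus strand).
Hmgcs1: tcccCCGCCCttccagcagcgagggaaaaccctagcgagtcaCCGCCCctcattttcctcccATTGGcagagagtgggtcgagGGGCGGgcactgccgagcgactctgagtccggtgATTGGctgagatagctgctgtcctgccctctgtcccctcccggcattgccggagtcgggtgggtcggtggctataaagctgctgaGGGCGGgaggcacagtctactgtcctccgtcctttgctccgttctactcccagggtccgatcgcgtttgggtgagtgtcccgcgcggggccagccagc
Dhcr7: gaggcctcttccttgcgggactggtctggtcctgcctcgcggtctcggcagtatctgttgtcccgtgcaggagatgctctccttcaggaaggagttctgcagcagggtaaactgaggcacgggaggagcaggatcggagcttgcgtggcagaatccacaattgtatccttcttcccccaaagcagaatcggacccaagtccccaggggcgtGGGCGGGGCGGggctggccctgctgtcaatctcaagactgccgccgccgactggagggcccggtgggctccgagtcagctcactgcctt
Sc5d: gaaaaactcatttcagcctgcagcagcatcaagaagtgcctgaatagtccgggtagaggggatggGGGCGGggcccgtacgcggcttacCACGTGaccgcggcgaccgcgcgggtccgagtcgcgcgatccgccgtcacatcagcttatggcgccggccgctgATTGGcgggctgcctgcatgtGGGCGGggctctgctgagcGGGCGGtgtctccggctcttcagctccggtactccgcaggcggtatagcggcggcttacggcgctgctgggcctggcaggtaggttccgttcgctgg
Insig1: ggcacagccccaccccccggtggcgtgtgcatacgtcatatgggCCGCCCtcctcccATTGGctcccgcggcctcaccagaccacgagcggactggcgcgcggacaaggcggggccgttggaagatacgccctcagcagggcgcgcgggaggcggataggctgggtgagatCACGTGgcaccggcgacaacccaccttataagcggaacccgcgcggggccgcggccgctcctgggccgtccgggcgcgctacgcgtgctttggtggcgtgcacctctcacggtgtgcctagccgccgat

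The NF-Y box was found in the windows of 18 of 22 genes (81.8%), against 38.5% of the 7767 tested genes with a window and 37.5% of all 33469 windows of the same length. The GC box was also in 18 of 22 (81.8%), against 65.3% of tested genes with a window and 33.1% of all windows. An E-box stood in 4 of 22, those of Sc5d, Scap, Insig1 and Elovl5 (18.2%, against 9.73% of tested genes and 6.42% of all windows). These genes did not share a course: Sc5d and Insig1 rose against vehicle, Scap fell at both times and Elovl5 fell at 12 h. Of 2 spellings of the sterol regulatory element, TCACNCCAC was in none of the 22 windows (1.25% of tested genes, 1.12% of all windows) and CACCCCAC in that of Ebp (4.55%, against 2.57% and 2.7%). These spellings overlap where the N is a C. The matches describe letters in a fixed window and are not evidence of binding. Srebf1 has 2 annotated start sites and was counted once. Sqle, Fdft1, Pmvk, Stard4, Fasn, Acaca and Elovl6 had no window, so these shares leave them out.

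**Figure D2:**
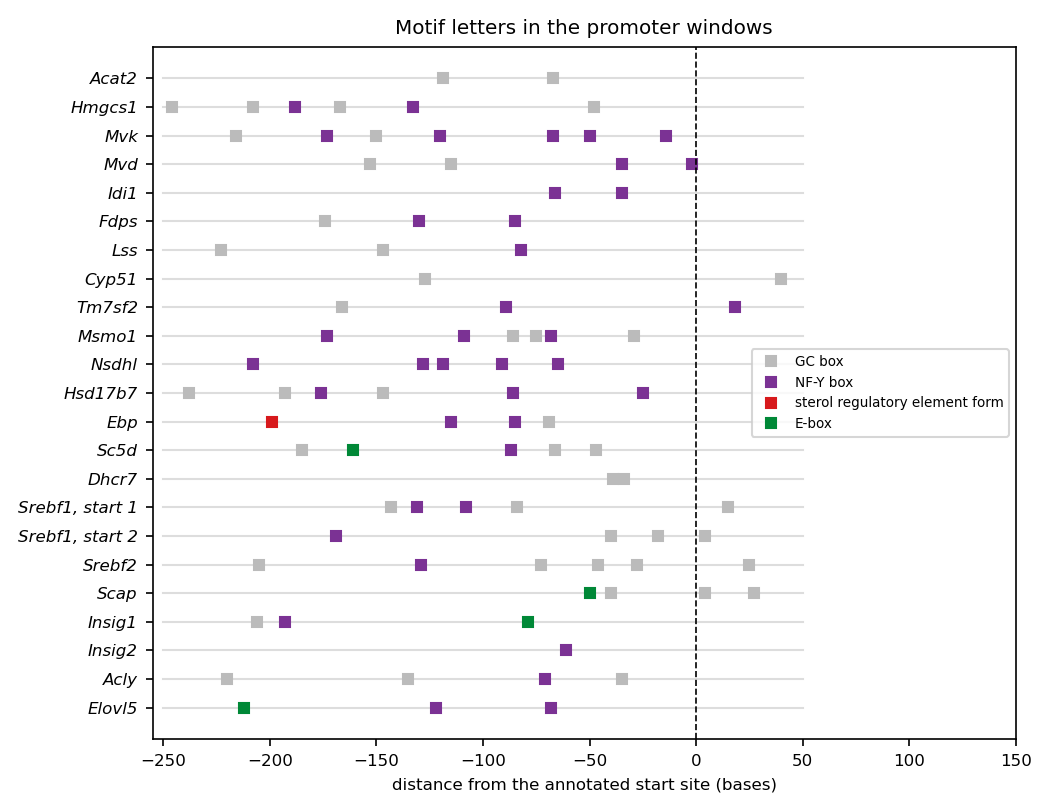
Position of motif letters in the promoter windows (horizontal axis, distance from the annotated start site in bases) for each of the 22 genes with a window (vertical axis, Srebf1 with both of its start sites), with squares coloured by motif. NF-Y boxes appear in 18 genes and GC boxes in 18, E-boxes in Sc5d, Scap, Insig1 and Elovl5, and a sterol regulatory element spelling in Ebp.

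The mevalonate and isoprenoid steps turn acetyl-CoA into farnesyl diphosphate. Of these 7 genes 6 fell and none rose at 6 h (39.0% of all tested genes fell), 5 fell at 12 h (against 38.2%), and 4 rose between 6 h and 12 h (against 25.3%), with median log2 fold changes of -1.09, -0.78 and 0.43. Hmgcs1, the synthase that makes HMG-CoA, stood at 678, 677 and 543 CPM in vehicle, 256, 235 and 260 CPM at 6 h and 254, 286 and 186 CPM at 12 h. Every PMA library lay below every vehicle library, and the libraries of both PMA times overlapped. Its log2 fold change was -1.34 ± 0.14 at 6 h (adjusted p = 3.2e-06) and -1.39 ± 0.14 at 12 h (adjusted p = 2.5e-06). Between the PMA times it was -0.05, with a 95% interval of -0.32 to 0.23 from the SE.

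Acat2, the cytosolic thiolase at the start of the route, stood at 159, 199 and 194 CPM in vehicle, 65.3, 63.4 and 63.5 CPM at 6 h and 90.8, 107 and 95.7 CPM at 12 h. The 3 groups did not overlap, with 12 h between the others. Its log2 fold change was -1.52 ± 0.09 at 6 h (adjusted p = 7.8e-11), and it rose by 0.61 ± 0.09 from 6 h to 12 h (adjusted p = 3.2e-05). Idi1, which isomerises isopentenyl diphosphate, fell to 43.1% of its vehicle mean at 6 h (-1.21 ± 0.12) and stood at 58.2% at 12 h. Pmvk, the kinase that acts on phosphomevalonate, fell to 47.1% (-1.09 ± 0.13) and stood at 65.3% at 12 h. Its rise between the times (0.47 ± 0.14, adjusted p = 0.00853) was lost without PMA 12 h replicate 3 (0.35, adjusted p = 0.0546).

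Fdps, farnesyl diphosphate synthase, had the largest rise after 6 h among these genes. It stood at 416, 525 and 495 CPM in vehicle, 264, 290 and 230 CPM at 6 h and 420, 460 and 404 CPM at 12 h. The 6 h libraries lay below all others, and those of vehicle and 12 h overlapped. Its log2 fold change was -0.87 ± 0.10 at 6 h (adjusted p = 3.9e-07) and 0.71 ± 0.10 from 6 h to 12 h (adjusted p = 1.5e-05). At 12 h it stood at 89.5% of vehicle (-0.16 ± 0.10, adjusted p = 0.143), a difference that passed without vehicle replicate 1 (-0.26, adjusted p = 0.0204), with upper-quartile scaling (-0.43) and without normalization (-0.74).

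Mvd, the decarboxylase that makes isopentenyl diphosphate, took the other course. Its 41.7, 39.9 and 35.0 CPM in vehicle gave way to 22.7, 21.6 and 23.0 CPM at 6 h and 19.8, 20.6 and 19.0 CPM at 12 h. The 12 h libraries lay below those of 6 h, though the step between the times did not pass (-0.18 ± 0.11, adjusted p = 0.191). Mvk, mevalonate kinase, was the 1 gene of the 7 that passed in no comparison: it stood at 27.5, 30.4 and 28.8 CPM in vehicle, 25.3, 30.6 and 25 CPM at 6 h and 25, 25.1 and 27.7 CPM at 12 h. Its 95% interval against vehicle was -0.32 to 0.12 at 6 h and -0.38 to 0.07 at 12 h. It passed as lower at both times with upper-quartile scaling (-0.36 and -0.43) and without normalization (-0.64 and -0.74).

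**Figure D3:**
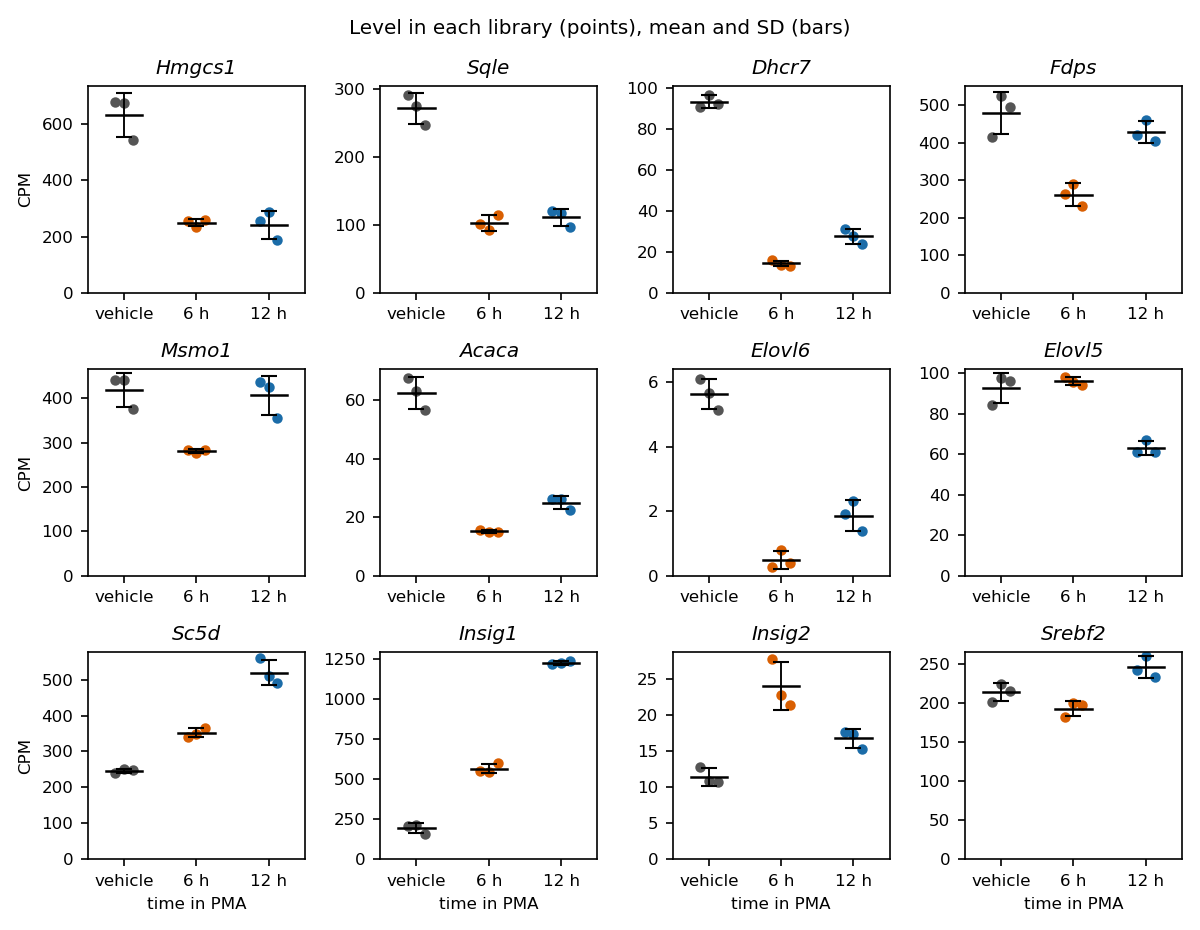
Level in CPM (vertical axes, from 0, each panel on its own scale) of 12 genes in each of the 3 libraries per group (points, with the mean and SD as bars) for vehicle, 6 h and 12 h in PMA (horizontal axes). Hmgcs1 and Sqle stay low at 12 h, Fdps and Msmo1 return to overlap with vehicle, Elovl5 is lower at 12 h, and Sc5d and Insig1 are higher at each later time.

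The squalene and sterol ring steps convert farnesyl diphosphate to cholesterol. Of these 11 genes 9 fell and 1 rose at 6 h, 7 fell and 1 rose at 12 h, and 9 rose with none falling between the times, where 39.0%, 38.2% and 25.3% of all tested genes fell, fell and rose. Their median log2 fold changes were -0.78, -0.30 and 0.53. Sqle, squalene epoxidase, an early oxygen-using step of the sterol branch, stood at 292, 276 and 247 CPM in vehicle, 102, 92.5 and 115 CPM at 6 h and 120, 117 and 96.7 CPM at 12 h. Like Hmgcs1 it fell below all vehicle libraries and did not return: -1.39 ± 0.10 at 6 h (adjusted p = 1.0e-09), -1.29 ± 0.10 at 12 h (adjusted p = 3.3e-09) and 0.11 ± 0.10 between the times (95% interval -0.09 to 0.30).

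Its neighbours in the route rose again after 6 h. Fdft1, squalene synthase, stood at 208, 221 and 204 CPM in vehicle, 81.3, 82.0 and 80.2 CPM at 6 h and 128, 125 and 109 CPM at 12 h. The 3 groups were fully apart (-1.38 ± 0.08 at 6 h, adjusted p = 2.7e-11, and 0.57 ± 0.08 from 6 h to 12 h, adjusted p = 1.0e-05). Lss, lanosterol synthase, which closes the ring, stood at 95.1, 119 and 85.8 CPM, then 41.1, 43.3 and 36.4 CPM, then 75.1, 86.7 and 79.2 CPM. It fell by 1.31 ± 0.11 on the log2 scale at 6 h and rose by 1.00 ± 0.12 by 12 h (adjusted p = 2.2e-06), when 1 library overlapped with vehicle. The remaining difference from vehicle (-0.32 ± 0.11, adjusted p = 0.0158) was lost without vehicle replicate 2 (-0.17, adjusted p = 0.153) or PMA 12 h replicate 1 (-0.27, adjusted p = 0.0738).

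Demethylation of lanosterol takes several enzymes. Cyp51, the lanosterol demethylase, stood at 66.9% of its vehicle mean at 6 h (-0.58 ± 0.09) and 81.3% at 12 h (-0.30 ± 0.09). Its rise between the times (0.28 ± 0.09, adjusted p = 0.0110) was lost without PMA 12 h replicate 2 (0.19, adjusted p = 0.0693). Msmo1, the sterol methyl oxidase, stood at 441, 441 and 376 CPM in vehicle, 284, 276 and 284 CPM at 6 h and 438, 426 and 356 CPM at 12 h. The libraries of vehicle and 12 h overlapped (-0.04 ± 0.09, adjusted p = 0.666, 95% interval -0.21 to 0.13), and this difference passed as lower with upper-quartile scaling (-0.31) and without normalization (-0.62). Nsdhl, the decarboxylating dehydrogenase of the same complex, stood at 58.4% of vehicle at 6 h (-0.78 ± 0.09) and 83.6% at 12 h (-0.26 ± 0.09, adjusted p = 0.0136). That 12 h call was lost without vehicle replicate 1 (-0.19, adjusted p = 0.0755) or PMA 12 h replicate 3 (-0.21, adjusted p = 0.0592).

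Hsd17b7, the keto reductase of that complex, had the steepest fall of the sterol genes. It stood at 6.60, 9.15 and 9.40 CPM in vehicle, 1.25, 0.808 and 0.520 CPM at 6 h and 2.38, 2.91 and 2.51 CPM at 12 h. The groups were apart, with 6 h lowest, although the 6 h libraries held only 18, 11 and 9 reads of it. Its log2 fold change was -3.30 ± 0.31 at 6 h (9.84-fold lower, adjusted p = 3.2e-08), -1.68 ± 0.27 at 12 h (adjusted p = 2.3e-05) and 1.61 ± 0.34 between the times (adjusted p = 7.5e-04).

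Dhcr7 and Sc5d act next to each other at the end of the route and moved in opposite directions. Sc5d makes 7-dehydrocholesterol, which Dhcr7 reduces to cholesterol. Dhcr7 stood at 91.0, 97.0 and 92.4 CPM in vehicle, 15.9, 13.7 and 13.2 CPM at 6 h and 31.0, 27.9 and 23.7 CPM at 12 h. It was 6.54-fold lower at 6 h (-2.71 ± 0.11, adjusted p = 6.3e-13), 3.39-fold lower at 12 h (-1.76 ± 0.11, adjusted p = 1.1e-10) and rose by 0.95 ± 0.12 between the times (adjusted p = 3.5e-06). Sc5d stood at 239, 252 and 247 CPM in vehicle, 340, 350 and 365 CPM at 6 h and 560, 511 and 491 CPM at 12 h. It was the 1 enzyme of the 29 genes that rose against vehicle, with all groups apart. Its log2 fold change was 0.52 ± 0.07 at 6 h (adjusted p = 4.3e-06; -0.02 without normalization, adjusted p = 0.792), 1.08 ± 0.07 at 12 h (adjusted p = 3.7e-10) and 0.57 ± 0.07 between the times (adjusted p = 5.2e-06).

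Ebp, the isomerase that shifts the ring double bond, stood at 68.4% of vehicle at 6 h (-0.55 ± 0.11) and 88.2% at 12 h. That 12 h difference did not pass (-0.18 ± 0.11, adjusted p = 0.130) but did without vehicle replicate 1 (-0.26, adjusted p = 0.0486) and under both other scalings (-0.45 with upper-quartile scaling, -0.76 without normalization). Tm7sf2, a sterol reductase whose reaction the nuclear envelope protein Lbr can also carry out, passed in no comparison. It stood at 10.7, 10.6 and 14.1 CPM in vehicle, 11.9, 11.6 and 10.4 CPM at 6 h and 13.6, 13.4 and 11.8 CPM at 12 h (95% interval of the log2 fold change -0.38 to 0.25 at 6 h and -0.18 to 0.45 at 12 h). Its sign at 12 h turned with upper-quartile scaling (-0.13) and in the fit that left scaling out (-0.44), where it passed as lower at 6 h too (-0.60).

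Of the 5 regulators of the SREBP pathway 2 rose and 2 fell at 6 h, and 3 rose and 2 fell at 12 h (37.8% and 37.7% of all tested genes rose, 39.0% and 38.2% fell). Insig1, which retains Scap and with it the SREBP proteins in the endoplasmic reticulum, had the largest rise of the 29 genes against vehicle at both times. It stood at 207, 212 and 156 CPM in vehicle, 552, 544 and 601 CPM at 6 h and 1218, 1223 and 1238 CPM at 12 h. The groups were far apart, and the 12 h libraries lay within a few percent of each other. Insig1 was 2.95-fold higher at 6 h (1.56 ± 0.10, adjusted p = 1.5e-10), 6.39-fold higher at 12 h (2.68 ± 0.10, adjusted p = 1.8e-13) and rose by 1.12 ± 0.10 between the times (adjusted p = 7.8e-08). It rose under every scaling tried.

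Insig2, the related protein encoded by another gene, peaked at 6 h. It stood at 12.8, 10.8 and 10.7 CPM in vehicle, 27.8, 22.8 and 21.4 CPM at 6 h and 17.7, 17.4 and 15.3 CPM at 12 h. The 3 groups did not overlap. Its log2 fold change was 1.07 ± 0.14 at 6 h (adjusted p = 2.6e-06), 0.55 ± 0.14 at 12 h (adjusted p = 0.00232) and -0.51 ± 0.14 between the times (adjusted p = 0.00609). The 12 h call against vehicle was lost with upper-quartile scaling (0.28, adjusted p = 0.0919) and turned without normalization (-0.03, adjusted p = 0.866). Between 6 h and 12 h Insig1 thus rose and Insig2 fell.

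Scap, the escort that carries SREBP proteins to the Golgi for cleavage, fell at each time. It stood at 137, 142 and 136 CPM in vehicle, 102, 106 and 107 CPM at 6 h and 84.9, 88.9 and 86.5 CPM at 12 h. These narrow groups did not overlap (-0.40 ± 0.07 at 6 h, adjusted p = 5.3e-05, and -0.67 ± 0.07 at 12 h, adjusted p = 1.3e-07). Srebf1, whose products favour fatty acid genes, stood at 64.0, 77.8 and 68.6 CPM, then 47.1, 51.1 and 45.2 CPM, then 49.2, 47.8 and 55.1 CPM. It was lower at both PMA times (-0.55 ± 0.10 and -0.47 ± 0.10), and those overlapped each other.

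Srebf2, whose product favours sterol genes, stood at 202, 225 and 215 CPM in vehicle, 182, 200 and 197 CPM at 6 h and 242, 261 and 234 CPM at 12 h. The groups did not overlap, but the spacing was narrow. The 6 h difference did not pass (-0.15 ± 0.07, adjusted p = 0.0744), though it did without vehicle replicate 1 (-0.19, adjusted p = 0.0358) and under both other scalings (-0.41 and -0.69). The 12 h rise (0.20 ± 0.07, adjusted p = 0.0194) was lost without vehicle replicate 1 or PMA 12 h replicate 2 (0.16 in both cases) and turned with upper-quartile scaling (-0.07) and without normalization (-0.38). Between the times Srebf2 rose by 0.35 ± 0.07 (adjusted p = 7.5e-04). Stard4, which carries cholesterol between membranes, stood at 60% of vehicle at 6 h (-0.74 ± 0.14) and 60.8% at 12 h (-0.72 ± 0.14).

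**Figure D4:**
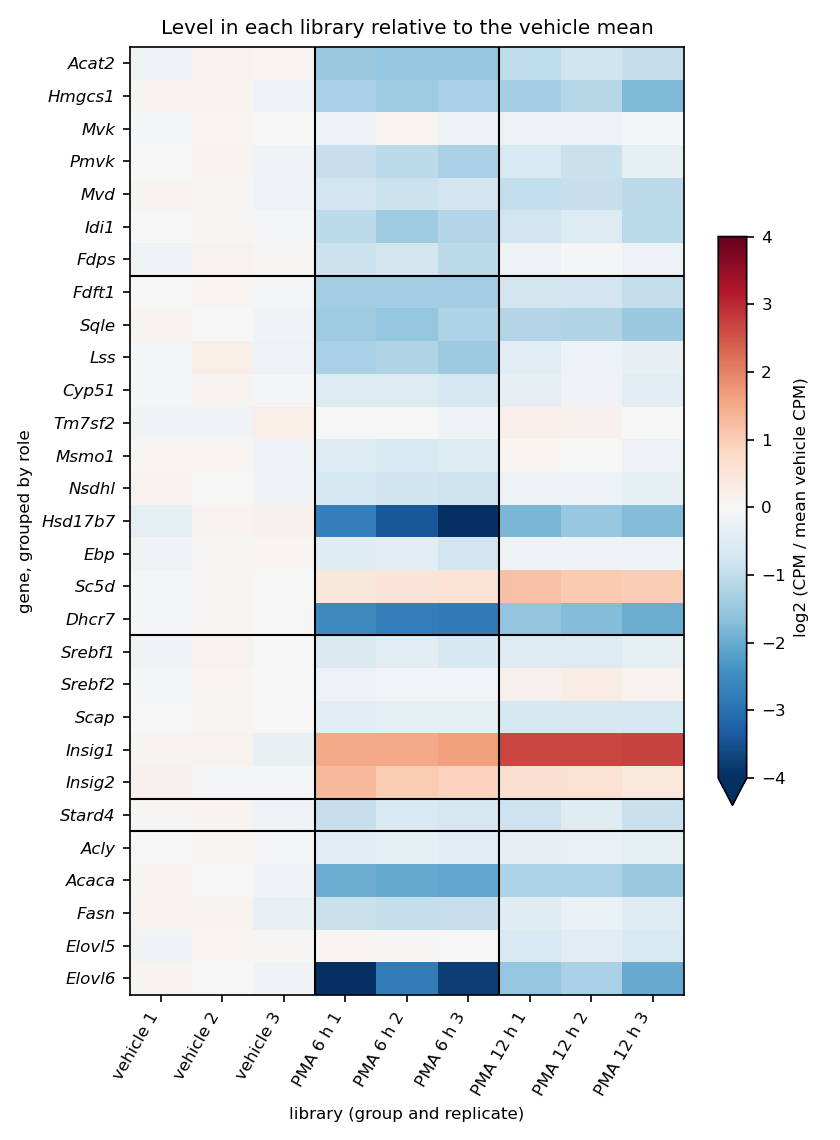
Log2 ratio of the CPM in each library to the mean vehicle CPM of the same gene (colour, blue below and red above vehicle, from -4 to 4) for the 29 genes (rows, lines separate the roles) in the 9 libraries (columns, by group and replicate). The blue of the 6 h columns pales at 12 h for most enzymes but not for Hmgcs1, Mvd or Sqle, and Insig1 deepens in red.

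The fatty acid synthesis genes make palmitate and extend it. Of the 5 measured genes 4 fell and none rose at 6 h (39.0% of all tested genes fell), all 5 fell at 12 h (against 38.2%), and between the times 3 rose and 1 fell (against 25.3% and 25.8%), with median log2 fold changes of -0.92, -0.56 and 0.50. Acly, which splits citrate, stood at 74.2% of vehicle at 6 h (-0.43 ± 0.07, adjusted p = 1.3e-05) and 80% at 12 h (-0.32 ± 0.07). Acaca, the carboxylase that commits acetyl-CoA to the route, stood at 67.5, 62.9 and 56.6 CPM in vehicle, 15.7, 15.1 and 14.8 CPM at 6 h and 26.3, 26.1 and 22.5 CPM at 12 h. It was 4.10-fold lower at 6 h (-2.04 ± 0.11, adjusted p = 1.8e-11) and 2.49-fold lower at 12 h (-1.32 ± 0.11, adjusted p = 4.4e-09), with no overlap of groups.

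Fasn, the synthase that builds palmitate, stood at 537, 531 and 402 CPM in vehicle, 265, 254 and 258 CPM at 6 h and 349, 407 and 346 CPM at 12 h. Vehicle replicate 3 was its lowest vehicle library and lay within the 12 h range. The log2 fold change was -0.92 ± 0.10 at 6 h (adjusted p = 2.9e-07) and -0.42 ± 0.10 at 12 h (adjusted p = 0.00118). Elovl6, which extends palmitate, stood at 6.09, 5.67 and 5.15 CPM in vehicle, 0.277, 0.808 and 0.405 CPM at 6 h (4, 11 and 7 reads) and 1.91, 2.32 and 1.39 CPM at 12 h. It had the largest fold difference of the 29 genes at 6 h (11.4-fold lower, -3.51 ± 0.37, adjusted p = 1.5e-07) and rose by 1.93 ± 0.41 between the times (adjusted p = 8.0e-04).

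Elovl5, which extends polyunsaturated fatty acids, differed from Elovl6 in its course. It stood at 84.2, 97.6 and 96.3 CPM in vehicle, 98.4, 95.9 and 94.2 CPM at 6 h and 61.2, 67.1 and 61.0 CPM at 12 h. The vehicle and 6 h libraries overlapped and those of 12 h lay below both. The 6 h difference did not pass (0.05 ± 0.08, 95% interval -0.11 to 0.21) and turned with upper-quartile scaling (-0.20, adjusted p = 0.0267), without normalization (-0.48, adjusted p = 3.5e-05) and without vehicle replicate 1 (-0.02). Elovl5 fell by 0.56 ± 0.08 on the log2 scale at 12 h against vehicle (adjusted p = 9.6e-06) and by 0.61 ± 0.08 from 6 h (adjusted p = 1.2e-05).

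The symbol Scd was not in the tables, but its older symbol Scd1 was, and this row was looked up after the other values had been seen. Scd1, the desaturase that makes oleate, stood at 42.6, 46.8 and 47.9 CPM in vehicle, 34.6, 35.7 and 29.6 CPM at 6 h and 9.32, 10.5 and 7.72 CPM at 12 h. The groups were apart, and most of the fall came after 6 h (-0.46 ± 0.12 at 6 h, -2.31 ± 0.13 at 12 h and -1.85 ± 0.13 between the times, adjusted p = 8.5e-09). It is not counted among the 29 genes.

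Spread within groups was measured as the coefficient of variation over the 3 libraries. The median coefficient of variation over genes was 8.80% in vehicle, 5.47% at 6 h and 7.86% at 12 h, against 8.91%, 10.1% and 10.4% over all tested genes. It was highest for Hsd17b7 in vehicle (18.5%) and for Elovl6 at 6 h (55.8%) and 12 h (25.1%), and Hsd17b7 reached 42.6% at 6 h, with few reads behind both genes. Vehicle replicate 3 was the lowest vehicle library for 18 of the 29 genes (34.2% of all tested genes), PMA 6 h replicate 3 the lowest 6 h library for 16 (38.1%), and PMA 12 h replicate 3 was the lowest 12 h library for 21 (36.9% of all tested genes). Vehicle replicate 3 had the highest level of proliferation genes in its group, and PMA 12 h replicate 3 the highest share of multimapping reads (7.74%, against 5.95% to 6.35% elsewhere). These values were not tested as sources of the order. The 29 genes together summed to 4870 to 5529 CPM in vehicle, 3577 to 3591 CPM at 6 h and 4820 to 5345 CPM at 12 h, of which Insig1 alone gave 1218 to 1238 CPM at 12 h.

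Other genes of the pathway were taken from lists, and up to 3 genes with the highest mean CPM of each list are named. Of 14 tested genes of further isoprenoid, sterol and SREBP processing steps, 9 fell and 2 rose at 6 h (64.3% and 14.3%, against 39.0% and 37.8% of all tested genes), and 10 fell and 3 rose at 12 h (71.4% and 21.4%, against 38.2% and 37.7%). The medians were -0.77 and -0.57, and the share called at 6 h, 78.6%, was near the 76.8% of all tested genes. Nus1, a subunit of the enzyme that makes dolichol precursors, rose from 97.1 ± 5.97 CPM (SD, n = 3) to 160 ± 3.43 and 246 ± 31.8 CPM, a 6 h call lost without normalization. Aacs, which activates acetoacetate for lipid synthesis, was called higher only at 12 h (0.49 ± 0.08, lost without normalization).

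Of the list of Insig partners and degradation factors 4 were tested. At 6 h 1 was higher and 1 lower, where 37.8% and 39.0% of all tested genes rose and fell. At 12 h 1 was higher, none was lower and 3 did not pass, where 37.7% and 38.2% of all tested genes rose and fell. Vcp, the segregase that extracts proteins from the membrane, stood at 744, 711 and 647 CPM in vehicle, 913, 915 and 911 CPM at 6 h and 668, 671 and 660 CPM at 12 h. Its 6 h libraries lay above all others, but that call did not hold under either other scaling. Syvn1, a ubiquitin ligase of the endoplasmic reticulum, passed in no comparison (-0.24 ± 0.11 at 12 h, adjusted p = 0.0599). Rnf145, a sterol-responsive ubiquitin ligase, stood at 170 ± 27.5, 147 ± 3.61 and 202 ± 5.79 CPM. Its 6 h call (-0.21 ± 0.09, adjusted p = 0.0462) was lost with DESeq2, with limma-voom, with the replicate block, in the 2-group fit and on leaving out any 1 library other than vehicle replicate 3. Its 12 h rise (0.25 ± 0.09) was lost in the 2-group fit and when vehicle replicate 3, or the first PMA 12 h library, was left out, and its sign turned under both other scalings (-0.03 upper-quartile, -0.34 unscaled).

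Of 19 tested genes of further fatty acid synthesis and modification, 11 fell and 4 rose at 6 h (57.9% and 21.1%, against 39.0% and 37.8% of all tested genes), and 10 fell and 5 rose at 12 h (52.6% and 26.3%, against 38.2% and 37.7%). The share called, 78.9% at both times, was near that of all tested genes (76.8% and 75.8%). Between the times 2 rose (10.5%, against 25.3%) and 17 did not pass. Scd2, another stearoyl-CoA desaturase, stood at 1398, 1513 and 1205 CPM in vehicle, 202, 206 and 177 CPM at 6 h and 212, 268 and 182 CPM at 12 h. It was 7.02-fold lower at 6 h (-2.81 ± 0.13, adjusted p = 3.1e-10) and 6.22-fold lower at 12 h. Reads matching both Scd1 and Scd2 would be multimapping and outside these counts. Acsl5 and Acsl4, which activate fatty acids, were both slightly lower at 6 h (-0.23 ± 0.08 each), for Acsl4 a call lost without vehicle replicate 2 or PMA 6 h replicate 1. The genes at both ends of this list are added after their values were seen. Fads1, a desaturase of polyunsaturated fatty acids, stood at 5.83, 10.7 and 11.5 CPM in vehicle, 0.692, 0.735 and 0.0578 CPM at 6 h (10, 10 and 1 reads) and 1.22, 0.436 and 0.954 CPM at 12 h (19.5-fold and 10.6-fold lower). Elovl4, which extends very long chains, went from 9.93, 9.07 and 10.3 CPM to 147, 157 and 164 CPM at 6 h and 174, 136 and 178 CPM at 12 h (16.0-fold and 16.7-fold higher).

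Of 8 listed genes of LXR signalling and export 5 were tested, and all 5 were called higher at 6 h and at 12 h (against 37.8% and 37.7% of all tested genes). Mylip, a ubiquitin ligase induced by LXR, had 5, 7 and 5 reads in vehicle and could pass the filter only through its PMA libraries, so its call adds nothing to that count. Of the untested genes, Nr1h3 and Abca1 had at most 5 reads in any library, and Osbpl3 was absent. These were named after their values were seen. Nr1h2, a receptor for oxysterols, rose from 55.6 ± 2.43 to 110 ± 1.68 CPM and stood at 76.8 ± 8.38 CPM at 12 h, a 12 h rise that neither other scaling kept. Osbpl8 and Abca7, a lipid transfer protein and a lipid transporter, rose by 1.02 ± 0.11 and 0.88 ± 0.10 at 6 h. Of 8 tested genes of uptake, lysosomal release and transport, 4 rose and 3 fell at 6 h (50% and 37.5%, against 37.8% and 39.0% of all tested genes). At 12 h 4 rose and 4 fell (50% each, against 37.7% and 38.2% of all tested genes). Npc1 and Npc2, which move cholesterol out of lysosomes, rose by 1.59 ± 0.08 and 1.05 ± 0.14 at 6 h, when the lipoprotein receptor Scarb1 fell (-0.60 ± 0.11). Lipa, the lysosomal lipase, named after its values were seen, was 4.07-fold lower at 6 h and 4.54-fold lower at 12 h.

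Of 8 tested storage genes 6 rose and 1 fell at 6 h (75% and 12.5%, against 37.8% and 39.0% of all tested genes), and 4 rose and 2 fell at 12 h (50% and 25%, against 37.7% and 38.2%). The gene that fell at 6 h was Gpam (-1.02 ± 0.15), and the 6 h rise of Dgat1 (0.24 ± 0.10, adjusted p = 0.0430) was lost under both other scalings, with limma-voom, with the replicate block and without any 1 of the 3 vehicle libraries, PMA 6 h replicate 2 or PMA 12 h replicate 1. Both were named after their values were seen. Plin2, which coats lipid droplets, stood at 198, 189 and 170 CPM in vehicle, 769, 719 and 776 CPM at 6 h and 369, 412 and 382 CPM at 12 h. It was 4.07-fold higher at 6 h (2.02 ± 0.08, adjusted p = 2.4e-13), and the 12 h libraries lay between the other groups. Soat1, which esterifies cholesterol, rose by 1.06 ± 0.07 at 6 h and stood at 0.99 ± 0.07 above vehicle at 12 h. Dgat2, which completes triglycerides, was higher at 6 h (0.52 ± 0.09, lost without normalization) and lower at 12 h (-0.49 ± 0.09). Of 8 tested kinase genes that act on the pathway, 2 rose and 5 fell at 6 h (25% and 62.5%, against 37.8% and 39.0% of all tested genes): Gsk3b (1.65 ± 0.08) and Stk11 (0.87 ± 0.10) rose, and Akt1 (-0.38 ± 0.08) fell. At 12 h 3 rose and 4 fell (37.5% and 50%, against 37.7% and 38.2% of all tested genes). Gsk3b (1.56 ± 0.08) and Stk11 (1.01 ± 0.10) were still higher then. Akt1 did not pass at 12 h (-0.03 ± 0.08, adjusted p = 0.716), though it did under both other scalings.

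**Figure D5:**
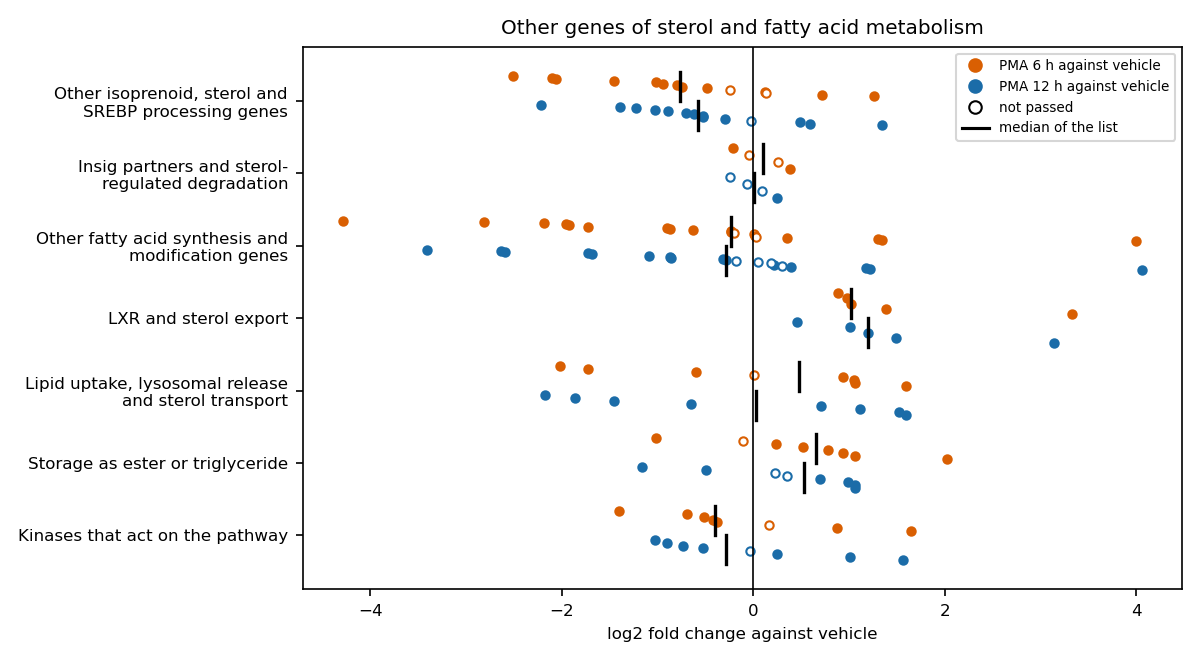
Log2 fold change against vehicle (horizontal axis) of each tested gene in 7 lists of related genes (vertical axis) after 6 h (orange) and 12 h (blue), with filled points for adjusted p under 0.05, open points otherwise and a black bar at the median of each list. The list of further isoprenoid and sterol steps has medians of -0.77 and -0.57, and the storage list has medians of 0.65 and 0.53.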

How the data were processed

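The deposited count tables hold whole numbers of reads per gene, which per the submitters' processing notes were made with STAR 2.7.5b on genome build rn6. The sources used here do not name the gene annotation. The unstranded column was used, since the strand columns each held close to 50% of reads, so overlapping genes such as Wdr37 at Idi1 or Rai1 at Srebf1, and copies such as those of Fdps, Acat2, Idi1 and Nsdhl, can cost reads. The authors' normalized table (DESeq2, per the submitters' processing notes) was not used. The 4 summary lines of each table were left out of the totals. They hold the reads that were unmapped (3.88% to 7.61%), multimapping (5.95% to 7.74%), outside genes (16.6% to 18.6%) or ambiguous (0.526% to 0.740%).

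With R 4.3.3 and edgeR 4.0.16, genes were kept by filterByExpr (minimum count 10, 10128 of 17315 genes), scaled by TMM and fitted with a robust quasi-likelihood model of group over all 9 libraries. Calls are Benjamini-Hochberg adjusted p under 0.05 over all 10128 genes. The SE was taken from the fold change and the F statistic. The common dispersion was 0.0125. The procedure was run on simulated data in which few genes changed, with as many rising as falling. That run could not test the scaling, because most genes differ between the groups here. Alternatives used limma 3.58.1 (voom) and DESeq2 1.42.0, other scalings and filters, a replicate block, 2-group fits and each library left out. Replicates differed by a chi-square per degree of freedom of 3.88 to 27.8, where sampling noise alone gives about 1. Every gene in the given list is named, and of each related list the 3 genes with the highest mean CPM, except 1 result that is not reported here. Members and lists were chosen with earlier results of these data known. Neighbouring genes and promoters come from RefSeq on GRCr8.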

Additional observations from a re-analysis of the deposited data

Results flagged for a closer look

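For 5 named genes the difference from vehicle had opposite signs at 6 h and 12 h, and the test of 12 h against 6 h passed. Both differences share the vehicle libraries. The log2 fold changes at 6 h and 12 h were -0.15 and 0.20 for Srebf2 (between the times 0.35 ± 0.07, adjusted p = 7.5e-04), 0.05 and -0.56 for Elovl5 (-0.61 ± 0.08, adjusted p = 1.2e-05), and 0.38 and -0.07 for Vcp (-0.45 ± 0.07, adjusted p = 5.0e-05). They were -0.21 and 0.25 for Rnf145 (0.46 ± 0.09, adjusted p = 5.7e-04) and 0.52 and -0.49 for Dgat2 (-1.01 ± 0.10, adjusted p = 2.0e-07). In each of these genes the sign at 1 of the times turned with upper-quartile scaling or without normalization.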

How the results depend on the processing

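Scaling moved these values most. The median of all tested genes shifted by -0.26 (6 h) and -0.27 (12 h against vehicle) with upper-quartile scaling and by -0.54 and -0.58 without normalization. The median of the 29 genes became -1.04 and -0.74 with upper-quartile scaling and -1.32 and -1.05 without normalization, while relative to all genes it stayed between -0.75 and -0.74 at 6 h and at -0.45 at 12 h. Genes called higher at 12 h went from 4 to 2 under both scalings. Signs turned at 6 h for Elovl5 (-0.20 and -0.48) under both and for Sc5d (-0.02) without normalization. At 12 h they turned for Srebf2 (-0.07 and -0.38) and Tm7sf2 (-0.13 and -0.44) under both and for Insig2 (-0.03) without normalization, as did Stard4 from 6 h to 12 h (-0.02). Leaving out 1 library gave medians of -0.85 to -0.73 at 6 h, -0.54 to -0.39 at 12 h and 0.36 to 0.52 between the times. Among differences that had not passed, leaving out 1 library turned the sign at 6 h for Elovl5 (range -0.02 to 0.09, vehicle replicate 1 left out) and Tm7sf2 (-0.14 to 0.08, vehicle replicate 3), at 12 h for Msmo1 (-0.12 to 0.05, PMA 12 h replicate 3), and between the times for Stard4 (-0.11 to 0.10, also -0.06, PMA 12 h replicate 2 and PMA 6 h replicate 1), Mvk (-0.10 to 0.05, PMA 6 h replicate 2) and Hmgcs1 (-0.18 to 0.11, PMA 12 h replicate 3). Size factors of DESeq2, its Wald test, limma-voom, both other filters and the 2-group fits changed the call or sign of none of the 87 gene values. The fit with the replicate block also changed none of these 87, though it lost the 6 h calls of Rnf145 and Dgat1 in the related lists (genes of the 29 called higher and lower 3 and 22 at 6 h). The labels share replicate numbers only: deviations of libraries with the same number correlated at -0.115 to 0.027, and the same number correlated best in 4 of 18 cases. Low counts limit Elovl6 and Hsd17b7 at 6 h.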
